A study of Bos taurus with 12 samples.

Results

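The glucocorticoid receptor gene NR3C1, 2 genes that set how much cortisol reaches the receptor (HSD11B1 and SERPINA6) and 6 genes that the receptor is known to induce (FKBP5, SGK1, TSC22D3, KLF9, DUSP1 and ZBTB16) were followed in the liver of newborn calves. They were chosen by gene symbol, and all 9 were found by Entrez gene ID among the 30336 genes of the count files. All 9 had enough reads to be tested, as did 13212 genes in all.

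By the labels, liver was biopsied at 4 d of age from 12 Holstein heifer calves, and polyadenylated RNA was sequenced in 1 stranded library per calf. Dams of the 6 control calves (CON) ate a close-up diet without added Met, and dams of the other 6 calves (MET) ate the same diet with ethyl-cellulose rumen-protected Met (Mepron) over the last 28 d of gestation. After birth the calves were managed alike, with first colostrum from their own dams and then a common milk replacer, and the comparison is between calves of dams on the 2 diets. Libraries held 8277789 to 10397604 counted reads, and 3 reads, the floor used here, equalled 0.289 to 0.362 CPM of the plain library totals. All other CPM are read counts scaled to library totals adjusted by TMM factors.

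CON replicates 1 and 4 were near-identical libraries, with differences scarcely above sampling error (chi-square of 1.311 per gene), and so were MET replicates 1 and 3 (1.228), whereas the other 64 of the 66 library pairs had 23.3 to 122.2. Whether each near-identical pair is 1 calf under 2 labels is not known. All library pairs above 50.45 held MET replicate 4 or 5. Each near-identical pair was therefore counted as 1 sample, written CON 1+4 and MET 1+3, and means ± SD are over 5 samples per diet. Tests are given over the 12 libraries, which is the design of the study, and for the 9 genes and every DEG named also over the 10 samples, for which both libraries of a pair were added up. All CON libraries carried one first sequencing index and all MET libraries another, so index and diet cannot be told apart.

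Cortisol enters hepatocytes and binds the glucocorticoid receptor, which is held in the cytoplasm by heat shock proteins and moves to the nucleus once bound. There it induces genes of gluconeogenesis and amino acid breakdown, together with genes such as FKBP5 that dampen its own action. Around birth a surge of cortisol prepares the liver for making glucose.

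Over the 12 libraries, 2 of the 9 genes passed the threshold of FDR ≤ 0.10 in edgeR's quasi-likelihood test, and both of them, NR3C1 and KLF9, were lower in MET. Of all genes tested 583, or 4.41%, were DEG, 307 of them (2.32%) lower and 276 (2.09%) higher in MET. The 9 genes are too few to compare with that share, and they were chosen with earlier results of these data known. Of the 9 genes, 7 had a log2 fold change below 0 and their median was -0.40, against -0.0031 for all genes tested, of which 50.4% were below 0. Over the 10 samples none of the 9 and 0 of 13242 genes in all had FDR ≤ 0.10 in edgeR, while DESeq2 called 639 genes (4.83%) on the same sums, 333 of them (2.51%) lower in MET, with NR3C1 and KLF9 among them. At an unadjusted p of 0.05 or less edgeR found 3 of the 9 (NR3C1, KLF9 and TSC22D3) and 2165 genes in all (16.3%).

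NR3C1 (Entrez 281946, chr7:56231970-56351929, minus strand, UMD 3.1.1) encodes the receptor itself. In CON its level was 51 CPM in sample 1+4, 49.9 in 2, 43.3 in 3, 42.2 in 5 and 44.4 in 6. In MET it was 35.3 CPM in sample 1+3, 33.9 in 2, 25.3 in 4, 35.4 in 5 and 35.5 in 6. Every MET sample lay below every CON sample, with replicate 4 lowest, and NR3C1 was the only one of the 9 genes whose diets did not overlap, which was the case for 3.71% of all genes. The means were 46.2 ± 4.01 and 33.1 ± 4.37 CPM (SD, n = 5), and NR3C1 fell by 0.49 on the log2 scale (SE 0.10, FDR = 0.0528 in edgeR over the 12 libraries), a level 1.41 times higher in CON than in MET. Over the 10 samples the log2 fold change was -0.48 (SE 0.12, FDR = 0.174 in edgeR). An exact two-sided permutation test of log2 CPM over the 10 samples gave p = 0.00794, the smallest that its 252 arrangements allow.

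The receptor transcript varied little between calves of a diet. Its biological coefficient of variation (BCV) was 0.154 over the 10 samples, at percentile 12.5 of all genes and 25.8 of the 1000 genes nearest in abundance, and the libraries counted as 1 sample differed 1.03-fold in CON and 1.15-fold in MET. The call was lost without CON replicate 1 (FDR = 0.113 in edgeR) or without CON replicate 4 (FDR = 0.117), which are near-identical libraries. Log2 fold changes fell with exonic length across all genes (Spearman's rho of -0.312, over genes that are not independent replicates), and NR3C1 is long, with 8025 exonic bases. With the trend on length removed, its log2 fold change was -0.36 (FDR = 0.116 in edgeR), and with library size alone in place of TMM factors it was -0.45 (FDR = 0.11).

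The 5 genes whose log2 CPM was most like that of NR3C1 over the 10 samples were HRG (Pearson r = 0.961), CHN2 (0.957), SELENOP (0.944), CDH2 (0.935) and KCNJ2 (0.929), out of 13241 ranked. All 5 were themselves DEG, lower in MET (FDR of 0.0674 to 0.0869 in edgeR over the 12 libraries and 0.175 to 0.205 over the 10 samples). HRG and SELENOP encode plasma proteins secreted by hepatocytes. The samples share the difference between diets, so these correlations are a description.

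**Figure D1:**
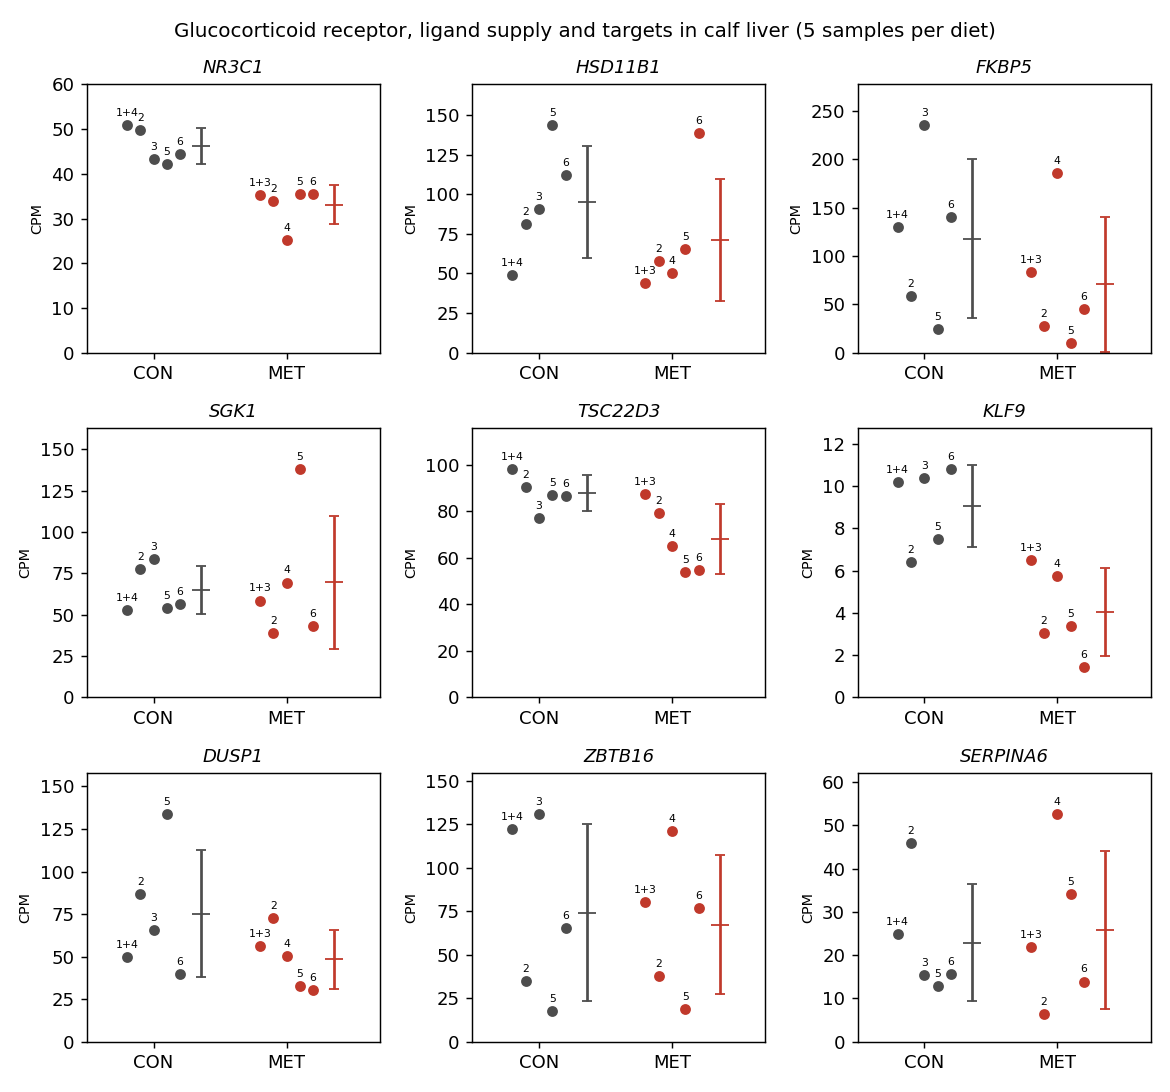
CPM of the 9 genes (vertical axes, each from 0) in the 5 CON and 5 MET samples, labelled by replicate, with the mean and SD of each diet at the right of its points. NR3C1 lay between 42.2 and 51 CPM in CON and between 25.3 and 35.5 in MET, whereas FKBP5 and ZBTB16 spread widely within both diets.

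Neither of the 2 genes of cortisol supply to the receptor passed the test. These are transcript levels, and cortisol and protein were not analysed here. HSD11B1 (Entrez 282589, chr16:75463273-75533162, minus strand), the enzyme that regenerates cortisol from cortisone inside the hepatocyte, was at 49.3, 81.3, 90.9, 144 and 112 CPM in CON samples 1+4, 2, 3, 5 and 6. In MET it was at 44, 57.6, 50.5, 65.7 and 139 CPM in samples 1+3, 2, 4, 5 and 6. MET replicate 6 stood far above the other 4 MET samples, all of which were below the CON median of 90.9 CPM. The means were 95.4 ± 35.3 CPM in CON and 71.3 ± 38.5 in MET (SD, n = 5), with a log2 fold change of -0.40 (SE 0.32, FDR = 0.512 in edgeR) over the 12 libraries and -0.42 (FDR = 0.56) over the 10 samples. Without MET replicate 6 the log2 fold change was -0.75 (FDR = 0.167 in edgeR), and without CON replicate 5 it was -0.20 (FDR = 0.77).

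SERPINA6 (Entrez 513746, chr21:59517403-59541532, minus strand) encodes corticosteroid-binding globulin, the plasma carrier of cortisol, which the liver secretes. It ranged from 12.9 to 45.9 CPM in CON and from 6.44 to 52.7 CPM in MET, so that the MET samples spanned the whole range of CON. The means were 22.9 ± 13.6 and 25.8 ± 18.2 CPM (SD, n = 5), with a log2 fold change of 0.11 (SE 0.42, FDR = 0.913 in edgeR) over the 12 libraries and 0.17 (FDR = 0.898) over the 10 samples. MET replicate 4 was highest, and without it the sign turned (-0.24).

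KLF9 (Entrez 539139, chr8:46883356-46907760, minus strand), a transcription factor gene that glucocorticoids induce directly, had the largest fold change of the 9 genes. In CON it was at 10.2, 6.41, 10.4, 7.51 and 10.8 CPM in samples 1+4, 2, 3, 5 and 6. In MET it was at 6.51, 3.03, 5.76, 3.36 and 1.44 CPM in samples 1+3, 2, 4, 5 and 6. Of the 5 MET samples 4 lay below all of CON, and sample 1+3 lay just above the lowest CON sample. The means were 9.05 ± 1.96 and 4.02 ± 2.08 CPM (SD, n = 5), and KLF9 fell by 1.05 on the log2 scale (SE 0.30, FDR = 0.0869 in edgeR over the 12 libraries), a level 2.08 times higher in CON. Over the 10 samples the log2 fold change was -1.15 (SE 0.33, FDR = 0.178 in edgeR), and the exact permutation test gave p = 0.0159. KLF9 had the fewest reads of the 9 genes, 14 to 104 per library, and CON replicates 1 and 4 differed 1.25-fold. The call held in 2 of the 12 fits that each left out 1 library, those without CON replicate 2 or MET replicate 1, and in the others FDR was 0.102 to 0.153. It was also lost with the length trend removed (FDR = 0.11 in edgeR), with library size alone (FDR = 0.141) and with no filter on low counts (FDR = 0.121).

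TSC22D3 (Entrez 100125309, chrX:59707757-59774048, plus strand) encodes the leucine zipper protein GILZ, which carries part of the anti-inflammatory action of glucocorticoids. Its level was 98.1, 90.6, 76.9, 87.1 and 86.6 CPM in CON samples 1+4, 2, 3, 5 and 6. In MET samples 1+3, 2, 4, 5 and 6 it was 87.5, 79.4, 64.9, 53.8 and 54.8 CPM. MET replicates 4, 5 and 6 lay below all of CON, and the other 2 MET samples lay within its range. The means were 87.9 ± 7.69 and 68.1 ± 14.9 CPM (SD, n = 5), with a log2 fold change of -0.33 (SE 0.14, FDR = 0.202 in edgeR) over the 12 libraries and -0.37 (FDR = 0.266) over the 10 samples. The exact permutation test over the 10 samples gave p = 0.0556.

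DUSP1 (Entrez 539175, chr20:4449106-4452189, minus strand), a phosphatase that switches off MAP kinases, ranged from 39.7 to 134 CPM in CON and from 30.5 to 72.6 CPM in MET. CON replicate 5 was highest and MET replicates 5 and 6 lay below all of CON. Its log2 fold change was -0.51 (SE 0.29, FDR = 0.336 in edgeR) over the 12 libraries and -0.63 (FDR = 0.359) over the 10 samples, and without CON replicate 5 it was -0.23 (FDR = 0.632). SGK1 (Entrez 515854, chr9:73305302-73417849, minus strand), a kinase that acts on ion transport and insulin signaling, ranged from 53 to 83.7 CPM in CON and from 38.7 to 138 CPM in MET. Its highest value was that of MET replicate 5. The log2 fold change of SGK1 was 0.10 (SE 0.27, FDR = 0.865 in edgeR) over the 12 libraries and 0.098 (FDR = 0.904) over the 10 samples, and without MET replicate 5 it was -0.23.

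FKBP5 and ZBTB16 differed far more between calves of a diet than between diets. FKBP5 (Entrez 535704, chr23:9521254-9643476, minus strand), a co-chaperone that lowers the affinity of the receptor for cortisol, was at 130, 58.5, 236, 24 and 140 CPM in CON samples 1+4, 2, 3, 5 and 6. In MET samples 1+3, 2, 4, 5 and 6 it was at 83.5, 27.9, 186, 10.4 and 45.1 CPM. The highest and the lowest calf were thus 22.7-fold apart, 9.86-fold within CON and 17.9-fold within MET, while the libraries counted as 1 sample differed 1.1-fold in MET and by less in CON. With means of 118 ± 82.2 and 70.6 ± 70.1 CPM (SD, n = 5), its log2 fold change was -0.72 (SE 0.59, FDR = 0.515 in edgeR) over the 12 libraries and -0.74 (FDR = 0.629) over the 10 samples. Without CON replicate 3 it was -0.41, without MET replicate 5 it was -0.49, and without MET replicate 4 it was -1.26. In a fit of the 12 libraries with replicate number as a block it was -0.93 (SE 0.27, FDR = 0.17 in edgeR).

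ZBTB16 (Entrez 534401, chr15:24915703-25121618, plus strand) encodes the zinc finger repressor PLZF. It was at 122, 34.6, 131, 17.4 and 65.4 CPM in CON samples 1+4, 2, 3, 5 and 6. In MET samples 1+3, 2, 4, 5 and 6 it was at 80.5, 37.9, 121, 19 and 77 CPM. The diets overlapped fully, with means of 74.1 ± 51 and 67.1 ± 39.9 CPM (SD, n = 5). The log2 fold change of ZBTB16 was -0.24 (SE 0.48, FDR = 0.817 in edgeR) over the 12 libraries and -0.15 (FDR = 0.923) over the 10 samples. Of the 12 libraries, without MET replicate 4 it was -0.48 and without MET replicate 5 it was -0.049. Of the 10 samples, without CON replicate 3 the sign turned (0.16). The BCV over the 10 samples was 0.732 for FKBP5 (percentile 99 of all genes tested) and 0.594 for ZBTB16 (percentile 97.9), against a median of 0.207.

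The same calves were high or low in FKBP5 and ZBTB16. CON replicate 3 ranked first in both, replicate 5 of each diet took the last 2 places in both, and CON 1+4 and MET 4 were among the 4 highest in both. Over the 10 samples Pearson's r of their log2 CPM was 0.89 and Spearman's rho 0.842, with r = 0.953 within CON, 0.965 within MET and 0.825 over the 8 samples left without those 2 farthest from the median of FKBP5. Of 13241 genes FKBP5 was the one most like ZBTB16, and ZBTB16 ranked 6 among those most like FKBP5, behind DYNC1LI2 (r = 0.93) and 4 others. This is 1 of 36 combinations of the 9 genes, named after its values were seen, and it is given as a description. For NR3C1, r was 0.0883 to FKBP5 (0.141 within CON and -0.71 within MET) and -0.0916 to ZBTB16 (0.29 and -0.572).

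**Figure D2:**
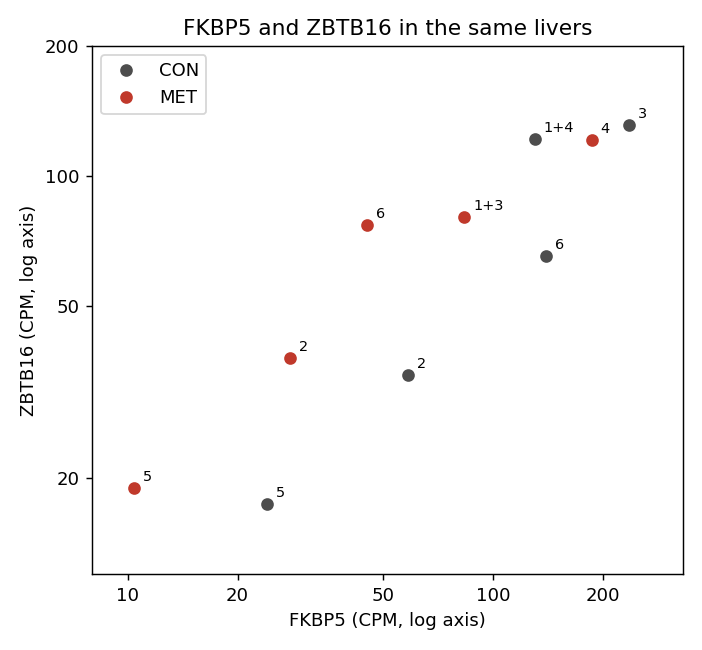
CPM of FKBP5 (horizontal log axis) against ZBTB16 (vertical log axis) in the 10 samples, coloured by diet and labelled by replicate. Replicate 5 of both diets sits at the lower left and CON 3, CON 1+4 and MET 4 at the upper right.

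For the other genes the most like gene over the 10 samples was DNAJB1 for HSD11B1 (r = 0.934), CD46 for SGK1 (0.934), HAO2 for TSC22D3 (0.966), MFSD14A for KLF9 (0.975), SLC25A17 for DUSP1 (0.916) and KLF15 for SERPINA6 (0.936). KLF15 is itself a gene that glucocorticoids induce.

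Per kilobase of exon, the order of the mean levels over the 10 samples was HSD11B1 (46.8 ± 20.8 CPM per kilobase), TSC22D3 (42.1 ± 8.26), DUSP1 (30.6 ± 15.3), FKBP5 (24.6 ± 19.9), SERPINA6 (16.2 ± 10.1), SGK1 (15.7 ± 6.66), ZBTB16 (8.62 ± 5.29), NR3C1 (4.94 ± 0.993) and KLF9 (4.92 ± 2.46). No 2 neighbours in this order differed beyond their SD, and the last 2 genes changed places between diets, with NR3C1 at 5.75 and KLF9 at 6.81 in CON and at 4.12 and 3.02 in MET. The receptor transcript was of middle abundance among all genes tested (percentile 49.1), and HSD11B1 was at percentile 90.2.

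Of 38 further genes known to be induced by glucocorticoids, all of which were tested, 2 were DEG over the 12 libraries (5.26%, close to the 4.41% of all genes), both lower in MET. Log2 fold changes were below 0 for 29 and above 0 for 9 of the 38, with a median of -0.31 against -0.0031 for all genes. Over the 10 samples none had FDR ≤ 0.10 in edgeR, and 11 reached an unadjusted p of 0.05 or less, against 16.3% of all genes, while DESeq2 called 5 of the 38 (13.2%) on these sums, all lower in MET, against 4.83% of all genes in either direction and 2.51% lower.

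PCK1, the enzyme that commits carbon to gluconeogenesis, was at 827, 364, 532, 659 and 390 CPM in CON samples 1+4, 2, 3, 5 and 6. In MET samples 1+3, 2, 4, 5 and 6 it was at 298, 400, 294, 275 and 240 CPM. All MET samples but replicate 2 lay below all of CON, and PCK1 fell by 0.99 on the log2 scale (SE 0.21, FDR = 0.057 in edgeR over the 12 libraries, FDR = 0.175 over the 10 samples). IGFBP1, a secreted protein that binds insulin-like growth factors, was at 403, 101, 684, 125 and 395 CPM in CON. In MET it was at 39.2, 1.76, 121, 67.6 and 81.3 CPM in the same order of samples as PCK1. IGFBP1 fell by 2.59 on the log2 scale (SE 0.67, FDR = 0.0766 over the 12 libraries and 0.192 over the 10 samples in edgeR), and MET replicate 4 was the one MET sample within the range of CON. Both calls were lost without CON replicate 1 or CON replicate 4 and with library size alone, and that of IGFBP1 also without CON 3 or 6 or MET 1, 3, 5 or 6, and with voom or robust estimation.

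The 3 most abundant of these 38 genes per length did not pass the test. The acute phase protein gene ORM1 had a log2 fold change of 0.018 (SE 0.22, FDR = 0.975 in edgeR), the metallothionein gene MT2A one of 0.36 (SE 0.34, FDR = 0.581), and CPS1, the first enzyme of the urea cycle, which also stands among the hepatocyte markers below, one of -0.32 (SE 0.18, FDR = 0.327).

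**Figure D3:**
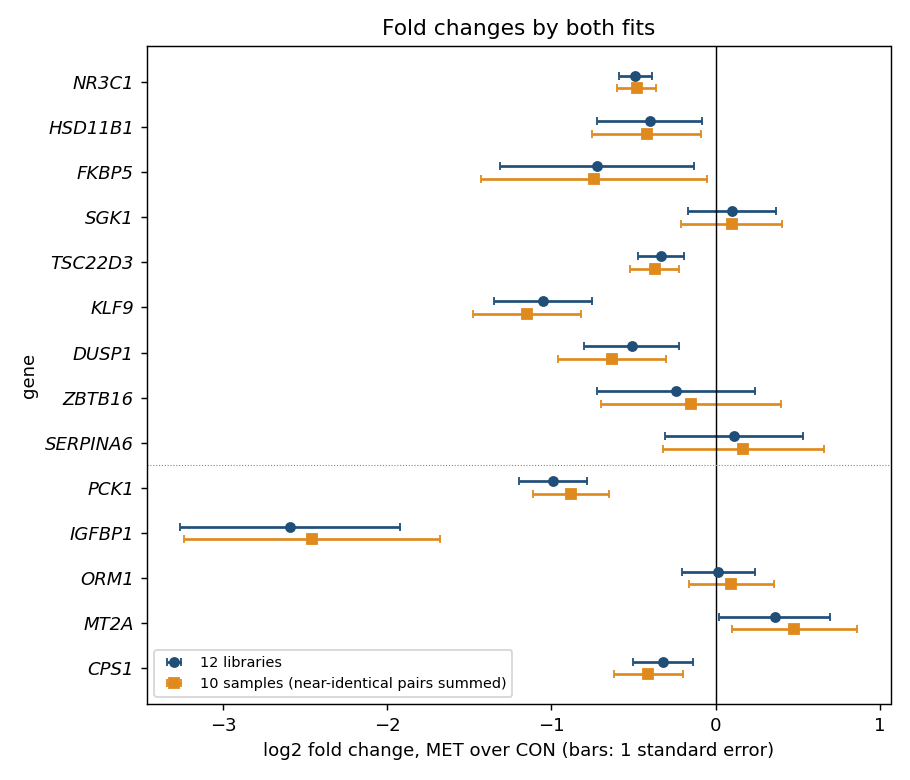
Log2 fold change of MET over CON (horizontal axis, bars of 1 SE) for the 9 genes and, below the dotted line, for 5 further target genes, over the 12 libraries (circles) and the 10 samples (squares). IGFBP1, KLF9, PCK1 and NR3C1 lie below 0, and the SE are widest for IGFBP1, FKBP5, ZBTB16 and SERPINA6.

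Chaperones and co-chaperones of the receptor numbered 16, and none of them was a DEG, a count too small to set apart from the 4.41% of all genes. Their median log2 fold change was 0.034, with 9 above and 7 below 0. The most abundant per length were HSPA8 (-0.62, SE 0.20, FDR = 0.123 in edgeR), HSP90AB1 (-0.20, SE 0.11, FDR = 0.337) and HSP90AA1 (-0.074, SE 0.19, FDR = 0.867).

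Of 18 genes listed as coregulators and tested, 1 was a DEG (5.56%, close to the 4.41% of all genes). This was PPP2R3C, which encodes a regulatory subunit of protein phosphatase 2A and whose place among the coregulators of this receptor is uncertain. It was at 7.17 to 11 CPM in CON and at 10.9 to 19.2 CPM in MET, and it rose by 0.75 on the log2 scale (SE 0.15, FDR = 0.0486 in edgeR over the 12 libraries, FDR = 0.174 over the 10 samples). MET replicate 6 was the one MET sample within the range of CON. The list's median was -0.044, and its most abundant genes per length were HDAC3 (0.14, FDR = 0.587 in edgeR), HDAC2 (-0.21, FDR = 0.303) and CARM1 (0.028, FDR = 0.89).

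Genes of cortisol clearance and the related mineralocorticoid receptor gave no DEG among the 5 tested, too few to compare with the 4.41% of all genes. The reductases AKR1D1 (-0.29, FDR = 0.253 in edgeR), SRD5A1 (-0.39, FDR = 0.163) and SRD5A3 (0.45, FDR = 0.12) were the most abundant per length. NR3C2, which encodes the mineralocorticoid receptor, had 1 to 16 reads per library, and HSD11B2, which inactivates cortisol, had 0 to 5 reads and was not tested.

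Immediate early genes, which respond within minutes to many signals and to handling of tissue, were set beside DUSP1, itself such a gene. Of 10 tested, 2 were DEG (20%, too few genes to compare with the 4.41% of all genes). MYC was lower in MET (-1.14, SE 0.27, FDR = 0.0684 in edgeR over the 12 libraries and 0.175 over the 10 samples), and IER2 was higher (0.43, SE 0.12, FDR = 0.0869 and 0.187). The most abundant per length, BTG2 (-0.13, FDR = 0.833 in edgeR), ZFP36 (-0.041, FDR = 0.947) and JUN (-0.30, FDR = 0.392), did not pass the test.

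The tissue was liver by its markers. ALB was the most abundant of the 8 hepatocyte markers (50837 CPM on average), and markers of other cells were present at far lower sums. The 8 hepatocyte markers summed to 169933, 183745, 136418, 166321 and 175618 CPM in CON samples 1+4, 2, 3, 5 and 6. In MET samples 1+3, 2, 4, 5 and 6 they summed to 138254, 111308, 136491, 144675 and 141014 CPM. The sum was thus lower in MET (134348 ± 13246 against 166407 ± 18008 CPM, SD, n = 5), with CON replicate 3 within the range of MET. Of the 8 markers 6 had a log2 fold change below 0 (median -0.26), and 1 was a DEG, too few genes to compare with the 4.41% of all genes. This was APOB (-0.38, SE 0.11, FDR = 0.0859 in edgeR over the 12 libraries and 0.189 over the 10 samples). The difference between the sums lay mostly in ALB (62223 CPM in CON and 39451 in MET) and in TF (51602 and 41171 CPM), neither of them a DEG, while FGB was at 35452 and 38694 CPM.

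The 6 markers of Kupffer cells and macrophages, led by MARCO, summed to 965, 1210, 1378, 1141 and 1264 CPM in CON and to 1357, 1536, 1408, 1127 and 1442 CPM in MET, in the same order of samples. All 6 had a log2 fold change above 0 (median 0.29), and 1 was a DEG, again too few genes to compare with that share. This was C1QB (0.39, SE 0.11, FDR = 0.0855 in edgeR over the 12 libraries and 0.213 over the 10 samples). No marker of cholangiocytes, endothelial cells, stellate cells and fibroblasts, erythroid cells or lymphocytes was a DEG, out of 3, 5, 5, 2 and 3 tested, too few to compare with the 4.41% of all genes. All 5 markers of stellate cells and fibroblasts had a log2 fold change below 0 (median -0.20), and they summed to 688 ± 119 CPM in CON and 554 ± 132 in MET (SD, n = 5). Of the 5 endothelial markers 4 were below 0 (median -0.091), with sums of 324 ± 61.8 and 269 ± 50.1 CPM. Of the cholangiocyte markers 2 of the 3 tested were below 0, and all 3 lymphocyte markers tested were above 0 (median 0.44). The erythroid marker HBB ranged from 6.19 to 937 CPM over the 10 samples. Its means were 354 ± 359 CPM in CON and 168 ± 157 in MET (SD, n = 5). The log2 fold change of HBB was -0.47 (SE 0.95, FDR = 0.819 in edgeR) over the 12 libraries and -1.07 (FDR = 0.581) over the 10 samples. ALAS2, the other of the 2 erythroid markers tested, was above 0 over the 12 libraries (0.16, SE 0.85, FDR = 0.94 in edgeR). Over the 10 samples ALAS2 was below 0 (-0.43, FDR = 0.837 in edgeR). All 5 erythroid markers summed to 365 ± 368 CPM in CON and 177 ± 165 in MET, from 7.58 in CON sample 1+4 to 960 in CON 2. In bulk tissue, fewer cells of a type and less RNA per cell cannot be told apart, and the part of these marker differences in the lower NR3C1, KLF9 and PCK1 of MET was not tested.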

How the data were processed

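The authors trimmed single-end reads with Trimmomatic, aligned them with STAR 2.5.3a to the bovine assembly UMD 3.1.1 and deposited raw counts of reads per gene from featureCounts (Subread 1.5.2), counted by strand and without normalization. Entrez IDs were given symbols by a RefSeq gene table of the later assembly ARS-UCD2.0, which named 25105 of the 30336 IDs, and coordinates are those of the count files. Exons of NR3C1 and TSC22D3 overlap only genes of the opposite strand, which the stranded counting separates.

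The 9 genes and all gene lists were chosen with earlier results of these data known. Further genes are named if they had FDR ≤ 0.10 over the 12 libraries or were among the 3 most abundant per length of their list (for markers only some of these), and the genes most like each of the 9 are named by Pearson's r. NR3C2 and HSD11B2 fall outside this rule and were chosen after their values were seen. CEBPB, EP300 and H6PD of the lists were not analysed here, and 1 marker gene is not reported here.

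Counts were normalized by TMM and tested with edgeR 4.0.16 (quasi-likelihood, diet alone) in R 4.3.3 after its default filter (minimum count 10, total 15), with Benjamini-Hochberg adjustment over all genes tested. The SE of a log2 fold change is the one implied by its F statistic. Exact two-sided permutation tests used log2 CPM with a prior count of 2, averaged within a near-identical pair. Libraries of a pair had a chi-square per gene below 3 over genes with at least 10 reads. Alternatives used DESeq2 1.42.0, voom of limma 3.58.1, other factors and filters, a lowess trend on exonic length (span 0.5), replicate blocks, summed pairs, and each library left out. Leaving out each of the 10 samples was added after the data were seen. The steps were tested on simulated data. The floor of 3 reads covers counting error alone, as PCR copies of a molecule were not marked. The motif search planned for promoters was not run, because no promoter sequence was used here.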

Additional observations from a re-analysis of the deposited data

Results flagged for a closer look

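In 2 of the 18 groups of 5 samples (9 genes in 2 diets), 1 sample stood far from the others of its diet. NR3C1 was at 25.3 CPM in MET replicate 4, with the other 4 MET samples between 33.9 and 35.5 CPM, and without that replicate the log2 fold change was -0.42 (FDR = 0.0737 in edgeR over 11 libraries). HSD11B1 was at 139 CPM in MET replicate 6, with the other 4 between 44 and 65.7 CPM. The gap to the nearest sample was 0.844 of the range of its diet for NR3C1 and 0.770 for HSD11B1, above the critical value of 0.71. Chance alone gives about 1 such group in 20 if CPM are normally distributed, which was not tested. The 9 genes also share the same samples.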

How the results depend on the processing

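Over the 12 libraries, NR3C1 and KLF9 were the 2 of the 9 genes called with RLE or upper-quartile factors, DESeq2, voom, robust estimation and the stricter filter, and also by DESeq2 on the summed pairs. With no filter on low counts 1 gene was called (NR3C1), and 0 with library size only, with the length trend removed, with pairs summed, or with pairs summed and the length trend removed. Of all genes, 107 were called with library size only (71 higher and 36 lower in MET, against 276 and 307), 1314 with DESeq2, 238 with no filter, 250 with the length trend removed, and 0 with pairs summed, with or without the length trend. Of the 38 further target genes, 8 were called with DESeq2 (1314 of all 13212 genes), 4 with voom (556 of 13212) and 1 with robust estimation (596 of 13212). With pairs summed and DESeq2 5 of them were called (639 of all 13242 genes). With library size only, with pairs summed, and with pairs summed and the length trend removed, 0 of them were called. The cause of these differences was not tested. Removing the trend moved NR3C1 from -0.49 to -0.36. Log2 fold changes of NR3C1 were between -0.51 and -0.35 and those of KLF9 between -1.25 and -1.03 over the 13 alternatives to the main fit. With near-identical libraries counted once there are fewer samples.

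With the replicate block, 0 of the 9 genes, 6 of all genes and 1 of the further target genes were called, which was neither PCK1 nor IGFBP1. Over all genes, same-numbered libraries had correlations of -0.19 to 0.148 between their deviations from the diet means. None of the 6 CON libraries correlated best with its own number. Among the 9 genes, the block lowered the SE of FKBP5 from 0.59 to 0.27 and that of ZBTB16 from 0.48 to 0.16. The SE of HSD11B1 fell from 0.32 to 0.20, while that of NR3C1 rose from 0.10 to 0.13 and that of SERPINA6 from 0.42 to 0.47. For KLF9, DUSP1, SGK1 and TSC22D3 it fell by little or not at all. Whether the numbers pair any calves is not known.

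Leaving out 1 library or sample gave 0 to 2 of the 9 genes, 0 to 565 of all genes and 0 to 3 of the further target genes. Over the 12 libraries the count of all genes was 26, 565, 284, 35, 459 and 376 without CON replicates 1 to 6 in turn. It was 206, 349, 332, 295, 340 and 216 without MET 1 to 6 in turn. With pairs summed, it was 39 without MET 1+3 and 0 in the other 9 fits. Signs turned in 3 genes, none of them called. SGK1 was -0.0015 with voom and -0.0098 with the replicate block, and lay between -0.31 and 0.25 when a library or sample was left out. ZBTB16 was 0.05 with pairs summed and the length trend removed, and between -0.48 and 0.16 when one was left out. SERPINA6 was -0.037 with voom, and between -0.26 and 0.57 when one was left out. The other 6 genes kept their sign in every alternative run. As TPM, 7 of the 9 genes kept their rank of level per length, and NR3C1 and KLF9 changed places. Depth limits KLF9 most, with as few as 14 reads in a library.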
